A study of Mus musculus with 5480 samples.

Results

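The genes described are 8 secreted signals of lung fibroblasts, chosen by name from the 18072 genes of the count table: the CC chemokines Ccl2, Ccl7 and Ccl11, the CXC chemokines Cxcl1 and Cxcl14, and the cytokines Il6, Il33 and Csf1. They were followed in 5480 single mesenchymal cells of mouse distal lung, sorted into plates and made into libraries with Tn5 transposase. The cells came from 10 mice, 1 female and 1 male in each of 5 groups: embryonic day 18.5 (E18.5), postnatal days 1, 7 and 21 (P1, P7, P21) under normal treatment, and P7 with hyperoxia, which is breathing gas enriched in oxygen. No genotype, strain, oxygen dose or exposure length is given in the labels. Each cell carried 1 of 16 subtype names given by the submitters. Wherever a pair of values is given for a group, the female comes first.

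Chemokines are small secreted proteins that draw leukocytes along a gradient through receptors on the leukocyte surface. Ccl2 and Ccl7 act on monocytes through Ccr2, Ccl11 (eotaxin) acts on eosinophils through Ccr3, and Cxcl1 acts on neutrophils through Cxcr2. Cxcl14 is a chemokine found in many healthy tissues whose receptor is debated. Il6 is an inflammatory cytokine that signals through Il6ra and Il6st, Il33 is a nuclear alarmin that acts through Il1rl1 on type 2 lymphoid cells once released, and Csf1 is the growth factor that sustains macrophages through Csf1r. In the lung, adventitial fibroblasts lie in the cuffs around large vessels and airways, where such leukocytes gather, and alveolar fibroblasts lie in the gas exchange walls.

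The libraries held 39358 to 5177020 reads per cell, with a median of 774305, and no molecular identifiers, so intervals and limits below cover counting error only. Each mouse gave 311 to 633 cells and 294154721 to 671766116 reads in all. The median number of genes detected per cell ranged from 2061 in the male P21 mouse to 5545 in the male hyperoxia mouse. The cells of each hyperoxia mouse came mainly from a sequencing run of its own, so run and hyperoxia cannot be told apart. The cells of the normally treated males were nearly all sequenced in 1 run. Those of the normally treated females came mainly from 1 run for E18.5 and P1, another for P7 and another for P21. In females, run and age therefore cannot be told apart from P1 to P7 or from P7 to P21. Sorts other than the mesenchymal one contributed 71 cells. Col14a1 and Col13a1 matched the names of adventitial and alveolar fibroblasts. The median level of Col14a1 was 922 CPM (reads of the gene per 1e+06 reads) in adventitial and 40.4 CPM in alveolar fibroblasts. That of Col13a1 was 15.2 and 172 CPM, and the leukocyte gene Ptprc stayed at or below 1.58 CPM in both. Markers of other classes that were read in airway smooth muscle and in adventitial fibroblasts are given below.

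For each mouse and class of cells, the reads of all its cells were added up and expressed as CPM. Early and later subtypes of the same name were joined, which left 839 adventitial fibroblasts, 1868 alveolar fibroblasts, 520 myofibroblasts, 399 airway smooth muscle cells, 201 vascular smooth muscle cells and 281 pericytes, beside 3683 fibroblasts of all kinds. A mouse entered a class with at least 10 cells. The share of cells with at least 1 read is given beside many of the levels, per mouse or as the mean over the mice of a group. The 3 CC chemokine genes are close relatives that lie next to each other on chromosome 11 of GRCm38, with Ccl2 at chr11:82035571-82037453, Ccl7 at chr11:82045712-82047525 and Ccl11 at chr11:82057823-82062955, all on the plus strand. How reads matching more than 1 of these relatives were counted is not given in the sources used here, so the split between Ccl2, Ccl7 and their neighbour Ccl12 is uncertain.

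Cxcl1 (chr5:90891241-90893115, plus strand) and Il6 (chr5:30013114-30019981, plus strand) are textbook targets of NF-kB, a transcription factor switched on by inflammatory signals, and there are 3 comparisons below in which both passed the test. Their promoters are therefore shown beside that of Cxcl14 (chr13:56288643-56296551, minus strand), which was highest in other cells. The sequences are from RefSeq on GRCm38.p6, cover the 240 bases that begin 250 bases before the start, and run 5′ to 3′ on the strand of the gene. Capitals mark matches to the motifs searched on both strands.
Cxcl1, chr5:90890995-90891234, plus strand: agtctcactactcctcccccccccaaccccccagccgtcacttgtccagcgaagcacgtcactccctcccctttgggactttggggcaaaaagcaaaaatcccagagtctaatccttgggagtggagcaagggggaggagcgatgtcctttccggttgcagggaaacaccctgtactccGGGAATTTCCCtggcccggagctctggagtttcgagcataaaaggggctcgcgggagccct
Il6, chr5:30012864-30013103, plus strand: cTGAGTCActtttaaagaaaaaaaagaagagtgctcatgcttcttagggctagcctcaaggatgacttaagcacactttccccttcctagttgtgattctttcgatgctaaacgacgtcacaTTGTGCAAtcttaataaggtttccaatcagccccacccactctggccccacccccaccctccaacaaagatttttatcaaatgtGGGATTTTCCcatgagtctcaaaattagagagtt
Cxcl14, chr13:56296562-56296801, minus strand: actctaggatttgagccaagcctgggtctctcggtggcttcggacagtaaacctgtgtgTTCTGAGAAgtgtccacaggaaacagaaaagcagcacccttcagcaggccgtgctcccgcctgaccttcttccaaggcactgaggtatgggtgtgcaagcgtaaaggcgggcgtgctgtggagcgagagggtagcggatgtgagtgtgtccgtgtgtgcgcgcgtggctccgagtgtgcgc

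The NF-kB pattern, GGGA and TTCC with 2 free bases between them, was found 44 bases before the start of Il6 and, as overlapping matches on both strands, 71 and 70 bases before the start of Cxcl1. Of 32851 promoter windows of the same length in the table, 1.47% held it. The Il6 window also held the AP-1 pattern TGANTCA, found in 7.81% of windows, and the C/EBP pattern TTGCNNAA, found in 10.8%. The Cxcl14 window held the STAT pattern TTCNNNGAA, found in 8.30% of windows, and no match to the others. The Csf1 window held the NF-kB pattern 154 bases before the start, and neither of the Il33 windows held it. The glucocorticoid receptor pattern, AGAACA and TGT with 3 free bases between them, was found in 0.414% of windows and in none of these promoters. A match is a description of letters and was not tested as a binding site. Windows were available for 5 of the 8 genes.

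Reads of the 8 genes sat in a minority of cells and were unevenly spread among them. Over all 5480 cells, Ccl11 was read in 1165 (21.3%), Cxcl1 in 1087 (19.8%), Csf1 in 1055 (19.3%) and Cxcl14 in 1020 (18.6%). Il6 was read in 530 cells (9.67%), Il33 in 336 (6.13%), Ccl2 in 183 (3.34%) and Ccl7 in 166 (3.03%). These cells did not contribute alike: 14 cells held 50% of all Ccl2 reads, 11 held 50% of the Ccl7 reads and 123 held 50% of the Ccl11 reads. A cell with a read of Cxcl1 had a median of 454 reads of it, against 31 reads for Csf1.

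**Figure D1:**
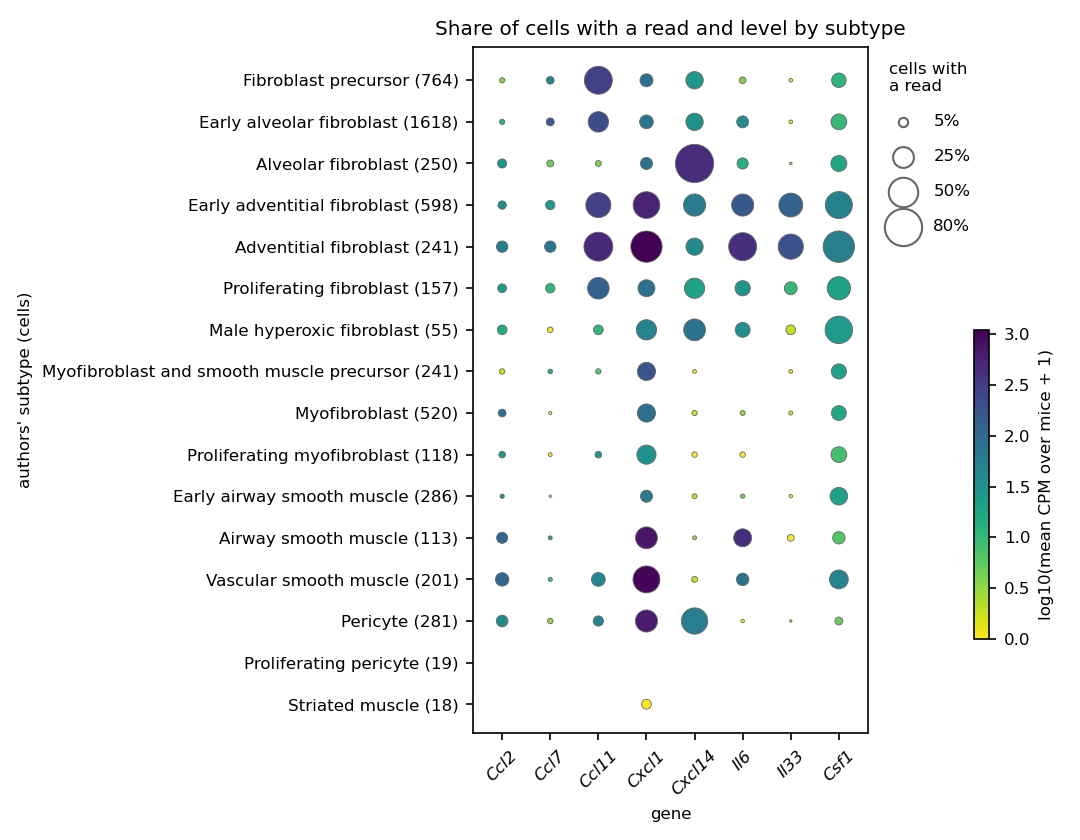
Levels of the 8 genes by subtype. Dot size is the percentage of cells with at least 1 read, and colour is log10 of the mean CPM plus 1 over the mice with at least 10 cells of the subtype. A dot is missing where the share is 0 or no mouse has 10 cells. The largest dots for Il33 lie in the early adventitial and adventitial fibroblasts (32.8% and 36.5% of cells), and the largest for Cxcl14 in alveolar fibroblasts (84.4%).

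The adventitial fibroblast carried the most of these signals per cell. An adventitial fibroblast of the later subtype had reads of 2.75 of the 8 genes on average and 56.4% of these cells had at least 3 of them, against 2.18 genes and 38.1% in early adventitial fibroblasts. Alveolar fibroblasts averaged 1.25 genes, early alveolar fibroblasts 0.808 and the 18 striated muscle cells 0.0556. These counts were made at full depth, and cells of the classes differ in genes held. With cells thinned to 100000 reads, adventitial fibroblasts at P21 held a median of 3210 and 2126 genes, against 2571.5 and 1063.5 in alveolar fibroblasts. Within the mouse, Cxcl1, Il6, Il33 and Csf1 were each higher in adventitial than in alveolar fibroblasts in 10 of 10 mice, both by CPM and by the share of cells after every cell was thinned to 100000 reads. Ccl11 was higher in adventitial cells by CPM in 9 of 10 mice, Ccl7 in 7, Cxcl14 in 6 and Ccl2 in 5. The subtypes were made from the expression of these same cells, so these orders are a description without a test. Per kilobase of gene model, the median level over the 10 adventitial samples was 305 CPM per kb for Cxcl1, 240 for Ccl11, 91.5 for Il6, 40.6 for Il33, 38.6 for Ccl7, 29.9 for Cxcl14, 21.6 for Ccl2 and 8.72 for Csf1.

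**Figure D2:**
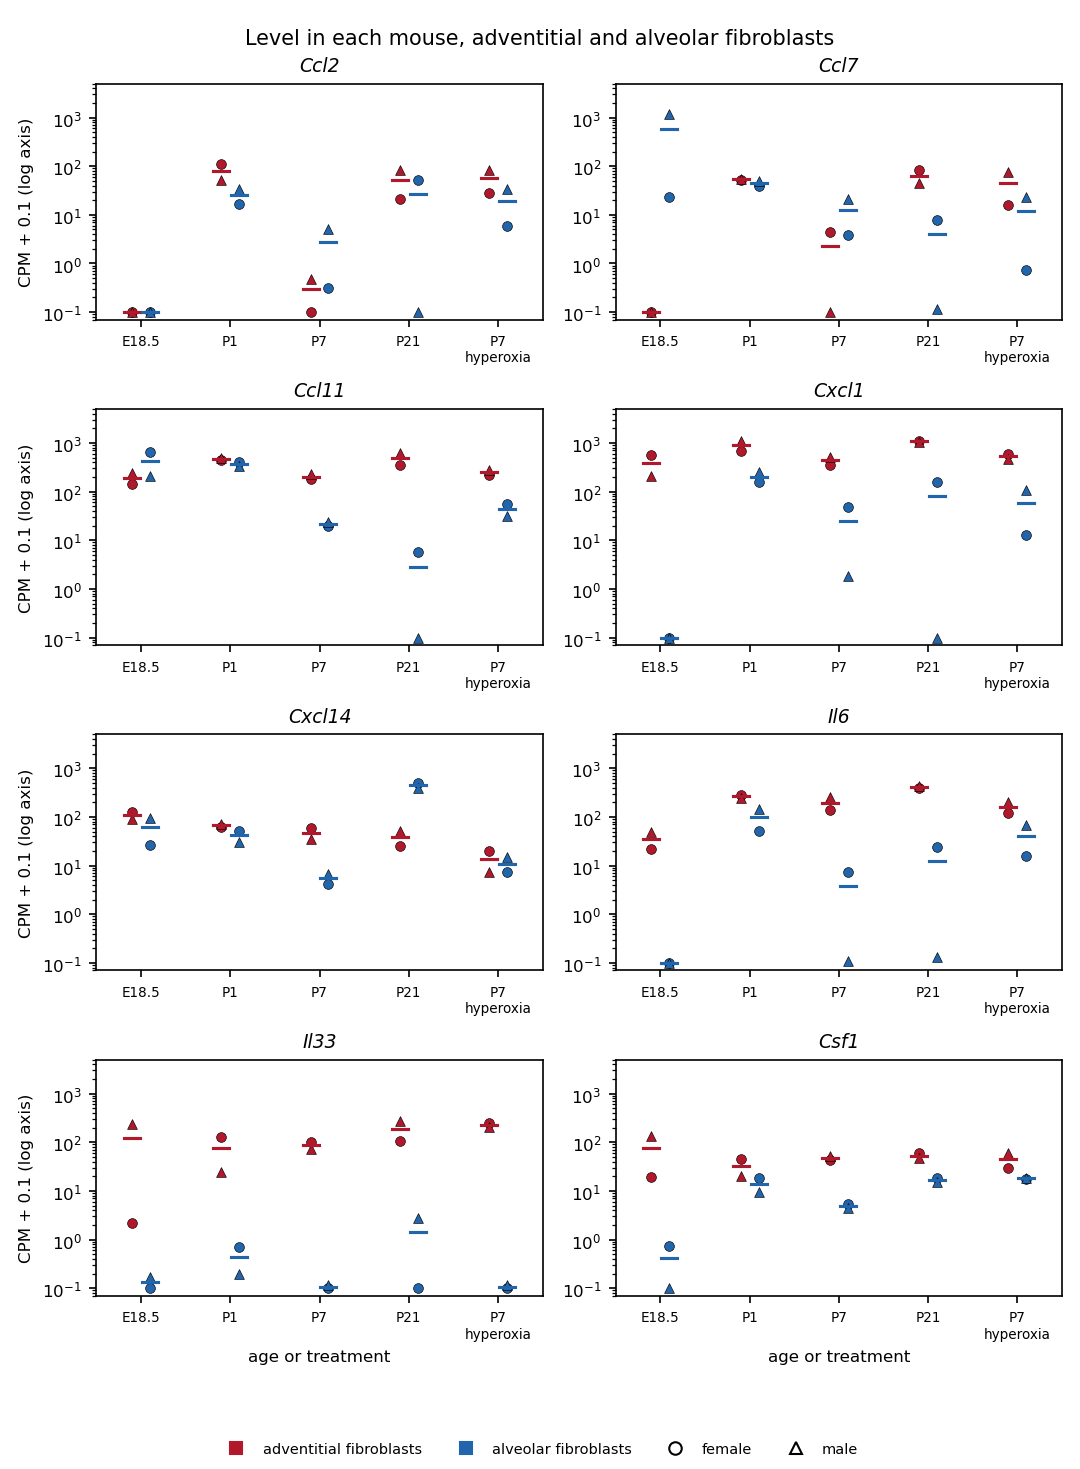
Level of each gene in every mouse, with CPM plus 0.1 on a log axis against group, for adventitial (red) and alveolar (blue) fibroblasts. Circles are females, triangles are males and short lines mark the mean of each group. Il33 separates the classes in every group, and Cxcl14 in alveolar fibroblasts stands at 491 and 401 CPM at P21 after 4.11 and 6.76 CPM at P7.

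Il33 was the signal most restricted to adventitial cells. It was read in 284 of 839 adventitial fibroblasts (33.8%) and in 14 of 1868 alveolar fibroblasts (0.749%). Early adventitial and adventitial fibroblasts together held nearly all of its reads, with 57.9% and 40.2%, and proliferating fibroblasts held 1.37%. In adventitial fibroblasts Il33 stood at 2.11 and 241 CPM at E18.5, then 130 and 24.0 at P1, 102 and 71.8 at P7, 104 and 275 at P21, and 251 and 203 after hyperoxia at P7. The mean shares of cells with a read were 22.8%, 17.2%, 18.8%, 35.1% and 55.2% in these groups. By CPM the male P21 mouse is the highest and the female E18.5 mouse the lowest, and the E18.5 and P1 pairs each differ several fold between their mice. Single cells weigh on the low samples, since 1 cell held 79.6% of the Il33 reads of the male P7 mouse and 78.8% of those of the female E18.5 mouse. In alveolar fibroblasts the highest level in any mouse was 2.67 CPM, and the female P7 mouse had 0 reads in 218 cells, which allows a share of up to 1.38%. Vascular smooth muscle had no read of Il33 in any mouse.

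Ccl11 was read mainly in fibroblasts, and in no cell of the myofibroblast and airway smooth muscle classes. For the male P7 mouse, 0 of 184 myofibroblasts allows a share of up to 1.63%. Proliferating myofibroblasts, left out of that class, had reads in 11.8% of 17 cells of 1 hyperoxia mouse. Precursors of myofibroblasts and smooth muscle had them in 1.71% of cells at E18.5 on average. Pericytes at E18.5 had reads in 39.3% of cells and vascular smooth muscle at P1 in 22.3%, on average. The reads lay in early alveolar fibroblasts (31.7%), fibroblast precursors (26.8%), early adventitial (20.8%) and adventitial fibroblasts (15.9%). In adventitial fibroblasts Ccl11 stood at 146 and 237 CPM at E18.5, then 453 and 490.5 at P1, 180.5 and 226 at P7, and 352 and 624 at P21. The mean shares of cells with a read were 28.6%, 35.3%, 30.4% and 47.4% at these ages. By CPM the P1 and P21 pairs lie above the E18.5 and P7 pairs, without overlap of neighbouring ages. With 2 mice a group this is common: in adventitial fibroblasts both mice were higher at P1 than at E18.5 for 23.1% of all genes, lower at P7 than at P1 for 22.1%, and higher at P21 than at P7 for 19.8%. Ordered over 30 places of subtype and group, adventitial fibroblasts at P21 (496 ± 182 CPM, SD, n = 2) led early adventitial fibroblasts at P1 (472 ± 26.4, n = 2), and these neighbours do not differ beyond their spread.

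Alveolar fibroblasts showed a different course of Ccl11 with age. Its level there was 396.5 and 337 CPM at P1, with reads in 40.1% and 42.7% of cells. At P7 it was 19.4 and 24.0 CPM, with reads in 4.59% and 6.80% of cells. At P21 it was 5.56 CPM in the female, while the male had 0 reads in 74 cells, which allows a share of up to 4.05%. Each age thus lies below the one before, with no overlap between P1 and P7, where 21.3% of all genes were lower in both mice, or between P7 and P21, where 26.9% were. Neither step passed the test over all genes (edgeR's quasi-likelihood test on sums per mouse, Benjamini-Hochberg adjusted, threshold 0.05), in which 0% of all genes were called from P1 to P7 and 0.0702% from P7 to P21.

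Ccl7 and Ccl2 were the rarest of the chemokines and the most dependent on single cells. Ccl7 was read in 5.72% and Ccl2 in 5.01% of adventitial fibroblasts. Ccl7 in adventitial fibroblasts stood at 0 in both E18.5 mice, then 52.2 and 55.0 CPM at P1, 4.35 and 0 at P7, 82.5 and 45.7 at P21 and 16.2 and 75.9 after hyperoxia. The P1 and P21 pairs are high and the E18.5 and P7 pairs are low or without reads, and those neighbouring ages do not overlap. Such separation is common over all genes in this class, at the shares given above for Ccl11. The Ccl7 levels rest on reads in 4.43% of cells at P1, 2.00% at P7 and 6.40% at P21, on average. The top place for Ccl7, early alveolar fibroblasts at E18.5, rests on the 1156 CPM of the male, 83.6% of it from 1 cell, beside 22.7 CPM in the female. Ccl2 in adventitial fibroblasts stood at 0 in both E18.5 mice, then 110 and 51.8 CPM at P1, 0 and 0.389 at P7, 21.1 and 84.0 at P21 and 28.1 and 85.2 after hyperoxia. By CPM, Ccl2 had the same high and low ages as Ccl7, with the same shares of all genes beside it. It was read in 3.69% of cells at P1, 0.893% at P7 and 8.61% at P21, on average. Outside fibroblasts, the highest mean level of Ccl2 was in vascular smooth muscle at P21 (229 ± 277 CPM, SD, n = 2), a spread larger than the mean.

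Cxcl1 was shared between adventitial fibroblasts and the cells around vessels. In adventitial fibroblasts it stood at 555 and 205 CPM at E18.5, then 690 and 1109 at P1, 359 and 522 at P7, 1112 and 1031 at P21, and 588 and 468.5 after hyperoxia. The P1 and P21 pairs lie above the pair at P7, a separation as common over all genes as given above for Ccl11 in this class. Vascular smooth muscle at P1 held the top place over subtypes and groups with 1334 and 2819 CPM and reads in 66.7% and 68.8% of cells, followed by pericytes at P1 with 1315 and 1187 CPM. Within the mouse, adventitial fibroblasts were above vascular smooth muscle in 4 of 8 mice and above pericytes in 3 of 8. Alveolar fibroblasts varied between mice of a group, with 160 CPM in the female and 0 in the male at P21.

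Cxcl14 had a separate pattern, with its highest level in alveolar fibroblasts at P21. That subtype held 45.7% of all Cxcl14 reads and stood at 449.5 ± 58.5 CPM (SD, n = 2) at P21, above pericytes at P21 with 216 ± 39.6 CPM and early adventitial fibroblasts at E18.5 with 107 ± 25.3 CPM, gaps larger than the spread within each pair of mice. Before P21 the mean level in alveolar fibroblasts was 60.5 ± 48.5 CPM (SD, n = 2) at E18.5, 41.4 ± 14.9 at P1 and 5.44 ± 1.88 at P7. In adventitial fibroblasts E18.5 was the highest age instead, with 125 and 89.5 CPM. The later pairs there were 62.8 and 73.0 at P1, 59.2 and 35.5 at P7, and 25.3 and 50.2 at P21. The mean shares of cells with a read were 56.6%, 31.3%, 25.6% and 17.7% at these ages. By CPM the E18.5 pair is the highest and does not overlap with P1, where 14.5% of all genes were lower in both mice, while P7 and P21 overlap. In pericytes Cxcl14 stood at 19.0 CPM or less in every mouse except the P21 pair, where it was 244 and 188 CPM with reads in 78.6% and 62.7% of cells.

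Il6 was highest in adventitial fibroblasts and, at P21, in airway smooth muscle. In adventitial fibroblasts it stood at 21.5 and 48.6 CPM at E18.5, then 288.5 and 245 at P1, 140 and 252 at P7, and 385 and 428 at P21. The mean shares of cells with a read were 12.7%, 34.3%, 26.6% and 44.8% at these ages. Airway smooth muscle at P21 held the first place over subtypes and groups (436 ± 162 CPM, SD, n = 2) and adventitial fibroblasts at P21 the second (415 ± 19.0 CPM), neighbours that do not differ beyond their spread. The shares of cells behind these similar levels were unlike, at 18.7% and 45.3% on average. Csf1 was read in every class, mostly at low counts. Its adventitial levels were 19.2 and 134 CPM at E18.5, then 44.9 and 20.1 at P1, 43.8 and 51.0 at P7, and 58.7 and 47.3 at P21, with reads in 26.8% to 61.5% of the cells of these mice. The E18.5 mice enclose the levels of all later mice in normal air.

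The first comparison across age asked what differed between E18.5 and P1, on either side of birth. In all fibroblasts joined, Il6 and Cxcl1 rose, and the other 6 genes did not pass the test. Ccl2 passed after every cell was thinned to 100000 reads, at an adjusted p of 0.0355 by edgeR, and with DESeq2, at 0.00691, which called 3 of the 8 genes and 5.5% of all genes. Il6 stood at 6.93 and 4.53 CPM at E18.5 and 119 and 159 CPM at P1, with reads in 3.02% and 16.4% of cells on average. The P1 mice lie far above the E18.5 mice, and the log2 fold change was 4.58 ± 0.45 (SE) with an adjusted p of 0.00224 by edgeR's quasi-likelihood test. Cxcl1 stood at 103 and 79.7 CPM at E18.5 and 314 and 382 CPM at P1. The pairs do not overlap, and the log2 fold change was 1.99 ± 0.32 (SE) with an adjusted p of 0.0207 by edgeR's quasi-likelihood test. Of all genes tested, 0.998% were called in this comparison and 0.879% as higher, and 20.2% of all genes were higher in both P1 mice. The call of Cxcl1 was lost when any 1 of these 4 mice was left out, with adjusted p up to 0.311. The joined fibroblasts differ in makeup, since adventitial cells made up 5.20% and 6.97% of them at E18.5 and 27.1% and 14.3% at P1, and the part of this in the result was not tested for the joined class.

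Within adventitial fibroblasts, where that makeup does not enter, Ccl2 and Il6 rose from E18.5 to P1 and 0.17% of all genes were called, 0.157% as higher. Il6, at the levels given above, had a log2 fold change of 3.05 ± 0.40 (SE) and an adjusted p of 0.0227 by edgeR's quasi-likelihood test. Ccl2 had 0 reads in 26 and 29 cells at E18.5, which allows shares of up to 11.5% and 10.3%, and 110 and 51.8 CPM at P1. Against a limit of 3 reads over both E18.5 libraries together its level at P1 was at least 1402-fold higher, with an adjusted p of 0.0427 by edgeR's quasi-likelihood test. That bound counts reads and covers no spread between cells. By cells the ages are not separated, since the mean Ccl2 share at P1, 3.69%, lies within the shares allowed at E18.5. Both calls were lost in a fit of only the 4 mice compared, at adjusted p of 0.29 for Ccl2 and 0.336 for Il6 by edgeR's quasi-likelihood test. The call of Ccl2 was also lost without the cells of other sorts, at an adjusted p of 0.0522 by edgeR's quasi-likelihood test. Leaving out either E18.5 mouse, the female P1 mouse, either P21 mouse or either hyperoxia mouse ended it too, with adjusted p up to 0.0913 by edgeR, and that of Il6 ended without the female E18.5, the female P1 or either hyperoxia mouse, with adjusted p up to 0.123 by edgeR. In alveolar fibroblasts, with only 14 and 24 cells at E18.5, 0 of the 8 genes were called by edgeR, 4 had an unadjusted p under 0.05, against 21% of all genes, and DESeq2 called 4 and 23% of all genes. Of all genes 6.16% were called there, nearly all of them higher at P1, and the median log2 fold change of all genes was 1.35.

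Between P1 and P7 the 8 genes were lower or near level in fibroblasts, without a call. In all fibroblasts the log2 fold changes were -4.87 for Ccl2, -2.56 for Ccl7, -2.58 for Ccl11, -1.28 for Cxcl1, -1.67 for Cxcl14, -1.40 for Il6, -0.19 for Il33 and -0.28 for Csf1. edgeR's quasi-likelihood test called 0 of the 8 genes and 0% of all genes, with adjusted p from 0.161 to 0.991. An unadjusted p under 0.05 was reached by 6 of the 8, against 7.4% of all genes, and DESeq2 called 5 and 3.11% of all genes. In adventitial fibroblasts edgeR called 0 of 8 and 0% of all genes, 3 had an unadjusted p under 0.05, against 5.6% of all genes, and DESeq2 called 1, Ccl2, and 2.19% of all genes. In alveolar fibroblasts edgeR also called 0 of 8, 3 had an unadjusted p under 0.05, against 2.36% of all genes, and DESeq2 called 1, Cxcl14, and 1.37% of all genes. Ccl11 passed in all fibroblasts when either P21 mouse was left out, with adjusted p of 0.0328 and 0.0311 by edgeR's quasi-likelihood test.

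From P7 to P21, the step over which alveoli mature, 5 of the 8 genes rose in all fibroblasts: Cxcl14, Cxcl1, Ccl11, Il6 and Ccl2. Of all genes tested, 5.1% were called, 2.71% higher and 2.39% lower. Cxcl1 stood at 109.5 and 185 CPM at P7 and 648.8 and 649.6 CPM at P21. Its P21 mice are nearly equal and both above the P7 mice, with a log2 fold change of 2.41 ± 0.32 (SE) and an adjusted p of 0.00403 by edgeR's quasi-likelihood test. Ccl11 stood at 50.8 and 84.9 CPM at P7 and 183 and 393 CPM at P21, a log2 fold change of 2.33 ± 0.37 (SE) with an adjusted p of 0.00882 by edgeR's quasi-likelihood test. Il6 stood at 35.4 and 75.3 CPM at P7 and 209 and 270 CPM at P21, a log2 fold change of 2.42 ± 0.41 (SE) with an adjusted p of 0.0114 by edgeR's quasi-likelihood test. Ccl11 was read in 11.5% of cells at P7 and 24.6% at P21 on average, and Il6 in 7.27% and 25.5%. For these genes no P21 mouse overlaps with a P7 mouse, a pattern with higher values at P21 that 18.1% of all genes share. The calls of Ccl11 and Il6 were lost without either P7 mouse, and that of Ccl2 without the female P7 or the male P21 mouse.

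The rarer Ccl2 and the alveolar Cxcl14 had the steepest changes of this step. Ccl2 stood at 0.373 and 3.48 CPM at P7 and 36.5 and 53.0 CPM at P21, a log2 fold change of 5.03 ± 1.05 (SE) with an adjusted p of 0.0265 by edgeR's quasi-likelihood test. Cxcl14 stood at 14.8 and 15.1 CPM at P7 and 252 and 180 CPM at P21, a log2 fold change of 4.11 ± 0.43 (SE) with an adjusted p of 0.0012 by edgeR's quasi-likelihood test. Ccl2 was read in 0.829% of cells at P7 and 6.19% at P21 on average, and Cxcl14 in 12.5% and 49.0%. By CPM each pair is well apart, and the calls of Cxcl14 and Cxcl1 were kept whichever mouse was left out. Ccl7, Csf1 and Il33 did not pass, at adjusted p of 0.0735, 0.141 and 0.318 by edgeR's quasi-likelihood test. Ccl7 passed after thinning (0.0101 by edgeR), without the male P21 mouse (0.0479 by edgeR) and with DESeq2 (0.00133). Csf1 passed with DESeq2 alone (0.0329), which called 7 of the 8 genes and 18.3% of all genes.

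The makeup of the fibroblasts moved over the same step, as adventitial cells were 17.5% and 26.8% of fibroblasts at P7 and 46.9% and 53.8% at P21. Within adventitial fibroblasts edgeR's quasi-likelihood test called 0 of the 8 genes and 0.124% of all genes, 5 of the 8 had an unadjusted p under 0.05, against 10.2% of all genes, and DESeq2 called 3 and 5.59% of all genes. The log2 fold changes there were 1.40 for Ccl11, 1.44 for Cxcl1 and 1.28 for Il6, smaller than in the joined class, with adjusted p of 0.164, 0.384 and 0.322 by edgeR's quasi-likelihood test. Ccl2 had 8.50 on the log2 scale from near 0, with an adjusted p of 0.0732 by the same edgeR quasi-likelihood test. Within alveolar fibroblasts, Cxcl14 went from 4.11 and 6.76 CPM to 491 and 401 CPM, and the share of cells with a read from 9.63% (95% Wilson interval 6.39 to 14.3) and 7.48% (4.23 to 12.9) to 87.4% (81.8 to 91.4) and 73.0% (61.9 to 81.8). These levels do not overlap, as for 15.4% of all genes with higher values at P21, and the mean was 82.1-fold higher at P21, yet the adjusted p was 0.0853 by edgeR's quasi-likelihood test. It passed the threshold under 5 alternatives, among them an adjusted p of 0.0442 by edgeR without a term for sex and 8.09e-13 by DESeq2, and when either E18.5 mouse was left out (0.00292 and 0.00286). In this class edgeR called 0 of 8, 1 had an unadjusted p under 0.05, against 7.13% of all genes, and DESeq2 called 2 and 6.75% of all genes. The early subtypes end and the later ones begin between these ages, so age and subtype name cannot be told apart.

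Contractile cells joined this step through airway smooth muscle, in which Cxcl1, Ccl2 and Il6 rose and 1.13% of all genes were called, 0.734% as higher. The P7 levels were below those at P1, by log2 fold changes of -14.7 for Ccl2 and -3.01 for Cxcl1. Their adjusted p were 0.177 and 0.351 by edgeR's quasi-likelihood test, which called 0% of all genes. DESeq2 called both, and 2.92% of all genes. At P1 Ccl2 stood at 73.1 ± 69.6 CPM (SD, n = 2) and Il6 at 4.50 ± 6.37 CPM. Cxcl1 stood at 11.7 and 27.9 CPM at P7 and 646 and 695 CPM at P21, a log2 fold change of 5.42 ± 0.65 (SE) with an adjusted p of 0.00755 by edgeR's quasi-likelihood test. Ccl2 had no reads in 75 and 64 cells at P7, which allows shares of up to 4.00% and 4.69%, and 38.5 and 171 CPM at P21, at least 5775-fold higher against a limit of 3 reads over both P7 libraries together, with an adjusted p of 0.0184 by edgeR's quasi-likelihood test. Il6 had 1 read at P7 and stood at 303.5 and 512 CPM at P21, a ratio of sums of 66421 (95% counting interval 11921 to 2623540) with an adjusted p of 0.021 by edgeR's quasi-likelihood test. All 3 genes separate the ages completely, as do 13.7% of all genes with higher values at P21, but from few cells, since Ccl2 was read in 3 and 5 cells at P21 and Il6 in 9 and 12. The bound for Ccl2 and the interval for Il6 count reads and cover no spread between cells or mice. The call of Il6 was lost without either P7 mouse.

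Markers of another class moved with these calls. The summed level of the adventitial fibroblast markers in airway smooth muscle was 545.5 and 557 CPM at P7 and 3646 and 5241 CPM at P21, while that of the airway smooth muscle markers was 17351 and 21347 CPM at P7 and 9081 and 10008 CPM at P21. The immediate early list, genes induced within minutes of a stimulus and by tissue dissociation, summed to 24771 and 20132 CPM at P7 and 74746 and 58202 CPM at P21. The part of these in the result was not tested.

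**Figure D3:**
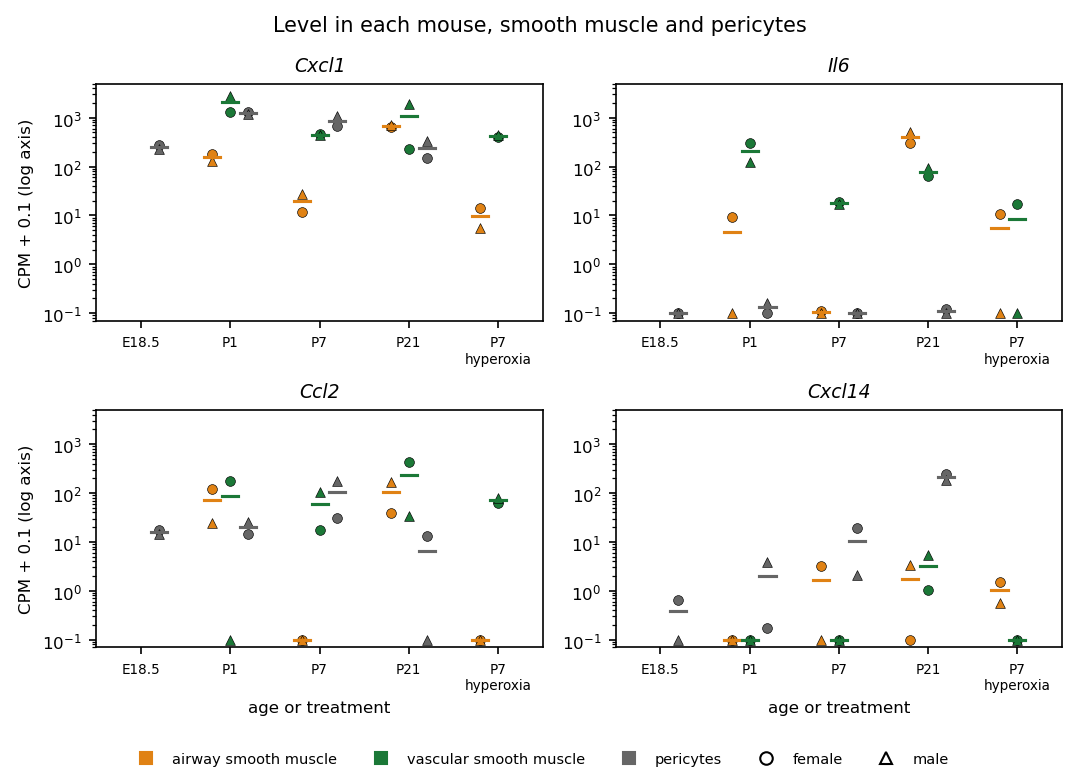
Cxcl1, Il6, Ccl2 and Cxcl14 in airway smooth muscle, vascular smooth muscle and pericytes of each mouse, as CPM plus 0.1 on a log axis against group. Circles are females, triangles are males and short lines mark group means. Groups with under 10 cells are absent. In airway smooth muscle Cxcl1 stands at 11.7 and 27.9 CPM at P7 and at 646 and 695 CPM at P21, and in pericytes Cxcl14 is highest at P21.

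In the other contractile cells none of the members passed the edgeR test at any step. In pericytes from E18.5 to P1, 2 had an unadjusted p under 0.05 (Ccl7 and Cxcl1), against 5.4% of all genes. There edgeR called 0.042% of all genes, and DESeq2 called 1 member and 5.63% of all genes. From P1 to P7 the pericyte count was 0, against 3.99% of all genes. There edgeR called 0% of all genes, and DESeq2 called 0 members and 4.07% of all genes. In vascular smooth muscle from P1 to P7 it was 1 (Cxcl1), against 3.73% of all genes, and with hyperoxia 0, against 2.57%. In both, edgeR called 0% of all genes. DESeq2 called 0 members and 3.58% of all genes from P1 to P7, and 1 member and 1.73% of all genes with hyperoxia. In myofibroblasts from P1 to P7 the count at an unadjusted p under 0.05 was 2 (Ccl2 and Il6), against 8.01% of all genes. There edgeR called 0% of all genes, and DESeq2 called 2 members and 5.13% of all genes. Pericytes are cells wrapped around capillaries, and their Cxcl1 stood at 272.5 and 228 CPM at E18.5, then 1315 and 1187 at P1, 670.5 and 1062 at P7 and 146 and 331 at P21. The P1 pair is the highest and the P21 and E18.5 pairs are the lowest. Their Ccl11 stood at 109 and 164 CPM at E18.5 and at 43.0 CPM or less in every later mouse. Vascular smooth muscle had Cxcl1 at 455 and 447 CPM at P7 and at 227 and 1928 CPM at P21, so the P21 mice enclose the P7 pair. Of all genes, 0.0886% were called in vascular smooth muscle from P7 to P21. There edgeR called 0 of the 6 members that passed its filter, 0 had an unadjusted p under 0.05, against 7.21% of all genes, and DESeq2 called 1 and 6.72% of all genes. In pericytes over the same step edgeR called 0 of 6 and 0.0504% of all genes, 3 had an unadjusted p under 0.05 (Ccl11, Cxcl1 and Cxcl14), against 4.66% of all genes, and DESeq2 called 2, Ccl11 and Cxcl1, and 3.75% of all genes. Myofibroblasts, the contractile cells of growing septa, had Cxcl1 at 52.5 and 65.1 CPM at P1, 69.0 and 80.1 at P7 and 89.4 and 178 after hyperoxia.

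The second question of the design was the response to hyperoxia at P7. No member was called in any class, and the comparison has 2 mice against 2, where an exact two-sided permutation test cannot go below 0.333. In all fibroblasts edgeR's quasi-likelihood test called 0 of the 8 genes and 0.00594% of all genes, 1 of the 8 had an unadjusted p under 0.05, against 11.2% of all genes, and DESeq2 called 1, in both cases Ccl2, and 3.93% of all genes. Ccl2 had the largest log2 fold change of the 8 genes there, 3.84, with an adjusted p of 0.272 by edgeR's quasi-likelihood test. In adventitial fibroblasts edgeR called 0 of 8 genes and 0% of all genes, 3 of the 8 had an unadjusted p under 0.05 (Ccl2, Ccl7 and Cxcl14), against 8.01% of all genes, and DESeq2 called 1, Ccl2, and 2.54% of all genes. In alveolar fibroblasts edgeR called 0 of 8 and 0% of all genes, 0 of the 8 had an unadjusted p under 0.05, against 2.68% of all genes, and DESeq2 called 0 and 1.54% of all genes. A direct test of whether hyperoxia acted differently in adventitial and alveolar fibroblasts called 0 of the 8 and 0% of all genes by edgeR. There 2 members had an unadjusted p under 0.05, against 6.83% of all genes, Ccl2 (log2 difference 5.98, adjusted p 0.619 by edgeR) and Csf1 (-2.08, adjusted p 0.729 by edgeR), and DESeq2 called 2 and 3.57% of all genes. Without the female P7 mouse, which leaves 1 mouse in normal air, the log2 difference of Ccl2 was 5.52.

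Il33 in adventitial fibroblasts had the clearest separation in cells with a read. At P7 in normal air it was read in 9 of 50 cells (18.0%, 95% Wilson interval 9.77 to 30.8) and 11 of 56 cells (19.6%, 11.3 to 31.8). After hyperoxia it was read in 58 of 110 cells (52.7%, 43.5 to 61.8) and 67 of 116 cells (57.8%, 48.7 to 66.4). Both hyperoxia mice lie above both mice in normal air, also by CPM, as for 29.6% of all genes, but the log2 fold change of 1.19 had an adjusted p of 0.853 by edgeR's quasi-likelihood test. With every cell thinned to 100000 reads the share was 37.4 percentage points higher, and 1.18% of all genes had a difference at least as high. Shares were higher for most genes, since 66.5% of all genes were higher in both hyperoxia mice after thinning, the median difference was 7.49 points, and the thinned adventitial cells held a median of 2482 and 2553 genes in normal air and 4015 and 4814.5 in hyperoxia. On the male hyperoxia mouse's separate plates the Il33 share was 55.2% and 61.2%.

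Cxcl14 went the other way in the same cells. It stood at 59.2 and 35.5 CPM in normal air and 19.7 and 7.42 CPM after hyperoxia, without overlap, where 13% of all genes were lower in both mice. The log2 fold change was -2.01, with an unadjusted p of 0.00814 and an adjusted p of 0.621 by edgeR's quasi-likelihood test. Its thinned share was 8.02 points lower, and 99.8% of all genes had a higher difference or the same. In alveolar fibroblasts the Cxcl14 share was higher instead, by 7.33 points, at 4.11 and 6.76 CPM in normal air and 7.11 and 14.7 CPM after hyperoxia.

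Csf1 was read in more cells after hyperoxia in both alveolar fibroblasts and myofibroblasts, as were most genes. After thinning, 65.8% of all genes in alveolar fibroblasts and 70.1% in myofibroblasts had higher shares in both hyperoxia mice. In alveolar fibroblasts it was read in 5.96% (95% Wilson interval 3.52 to 9.93) and 6.80% (3.74 to 12.1) of cells in normal air and in 23.1% (17.9 to 29.2) and 33.9% (28.2 to 40.1) after hyperoxia. The levels were 5.19 and 4.37 CPM in normal air and 17.9 and 18.1 CPM after hyperoxia, which do not overlap, where 25.9% of all genes were higher in both mice. The thinned share was 16.6 points higher, and 20.4% of all genes had a difference at least as high. In myofibroblasts it was read in 7.10% and 4.89% of cells in normal air and in 27.6% and 51.1% after hyperoxia. The myofibroblast levels were 8.57 and 14.5 CPM in normal air and 17.4 and 18.5 CPM after hyperoxia, which do not overlap either, where 20.6% of all genes were higher in both mice. The thinned share there was 20.8 points higher, and 35.8% of all genes had a difference at least as high. In adventitial fibroblasts the thinned share was 14.2 points higher, and 33.4% of all genes had a difference at least as high. In vascular and airway smooth muscle it was 10.8 and 8.07 points higher, with 41.0% and 39.5% of all genes at least as high. The adventitial Csf1 levels overlapped, at 43.8 and 51.0 CPM in normal air and 30.0 and 60.7 CPM after hyperoxia.

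**Figure D4:**
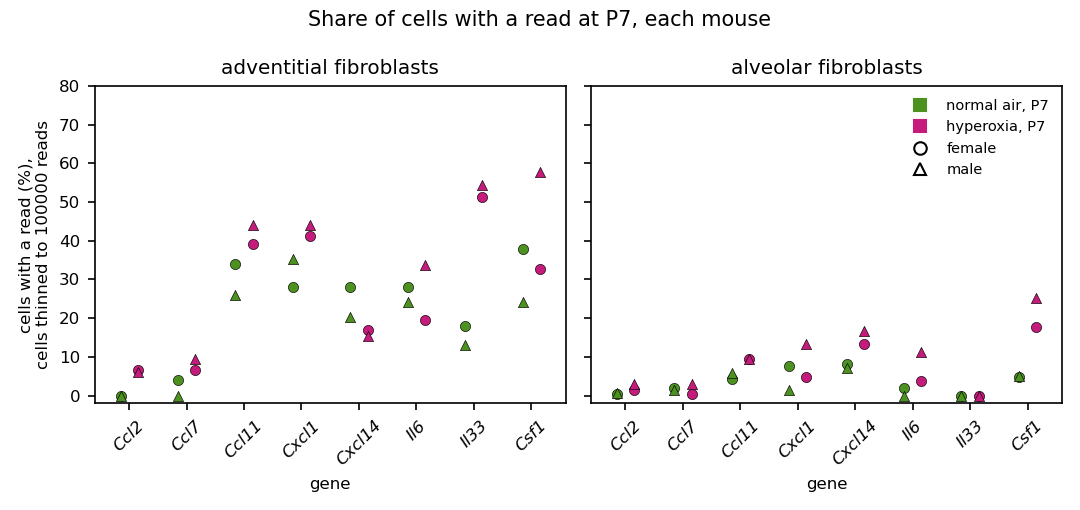
Percentage of cells with at least 1 read of each gene at P7 after thinning to 100000 reads per cell, in normal air (green) and hyperoxia (magenta), for adventitial and alveolar fibroblasts; each point is 1 mouse. Il33 in adventitial fibroblasts is at 18.0% and 13.0% in normal air and at 51.4% and 54.3% in hyperoxia, while Cxcl14 there is at 28.0% and 20.4% in normal air and at 16.8% and 15.5% in hyperoxia.

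Ccl2 after hyperoxia rested on few cells. Adventitial fibroblasts had it in 0 of 50 and 1 of 56 cells in normal air and in 7 of 110 and 8 of 116 cells after hyperoxia, so the shares do not overlap. After thinning the share was 6.29 points higher, below the median difference of all genes given above, and 53.6% of all genes had a difference at least as high. In the male hyperoxia mouse its level was 128 CPM on one plate and 10.2 CPM on the other. In myofibroblasts Ccl2 stood at 6.13 and 0.709 CPM in normal air and 377 and 16.6 CPM after hyperoxia, where 1 cell of the female held 58.1% of that mouse's Ccl2 reads in the class, and the log2 fold change of 5.50 had an adjusted p of 0.53 by edgeR's quasi-likelihood test. In myofibroblasts after hyperoxia edgeR called 0 of the 5 members that passed its filter and 0% of all genes, 3 had an unadjusted p under 0.05 (Ccl2, Cxcl14 and Il6), against 6.33% of all genes, and DESeq2 called 2, Ccl2 and Il6, and 2.81% of all genes. Leaving out either P1 mouse, neither of which is in the comparison, made Ccl2 pass there with adjusted p of 6.36e-05 and 2.39e-09 by edgeR.

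Markers of mesothelium, the lining of the lung surface, moved with hyperoxia in adventitial fibroblasts. Their sum over the 6 of 7 markers in the table was 288 and 0.0810 CPM at P7 in normal air and 722 and 826 CPM after hyperoxia, with all 6 detected in both hyperoxia mice and 2 at 0 in the male in normal air. The part of this in the results for hyperoxia was not tested. Immune markers summed to 39.2 and 43.5 CPM in normal air and 25.3 and 27.5 CPM after hyperoxia in the same cells.

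Members met in the same adventitial cells to different degrees. Of cells with a read of Cxcl1, 48.7% also had Il6, against 19.9% of cells without Cxcl1, and the share was higher with Cxcl1 in 9 of 10 mice. Of cells with Ccl11, 64.6% had Cxcl1, against 33.0% of those without, in the same direction in 9 of 10 mice. Il33 went with Csf1, read in 60.9% of cells with Il33 and 38.9% of cells without, in 10 of 10 mice. Cells with Ccl7 had Cxcl1 in 77.1% of cases, against 43.6% without, in 7 of 7 mice compared. Ccl11 and Cxcl14 went the opposite way: 12.0% of cells with Ccl11 had Cxcl14, against 33.6% of cells without, and the share was higher with Ccl11 in 0 of 10 mice. Deeper cells have reads of more genes and subtypes mix ages within the class, and no test was made over cells.

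**Figure D5:**
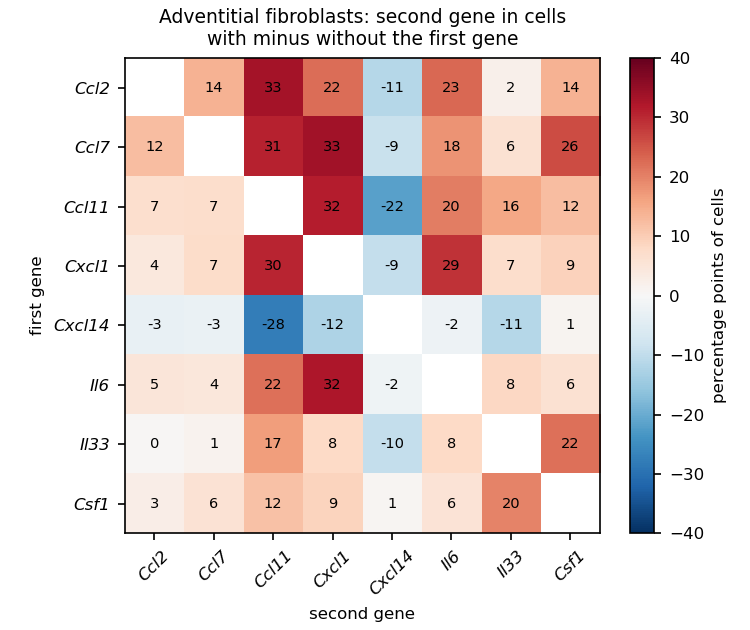
Co-detection in 839 adventitial fibroblasts. Each square is the percentage of cells with a read of the second gene (columns) among cells with the first gene (rows) minus that among cells without it, in percentage points, with all mice joined. Ccl7 and Cxcl1 give the contrast of 77.1% against 43.6%, and Ccl11 with Cxcl14 is on the negative side (12.0% against 33.6%).

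Over the 64 libraries of class and mouse, the genes whose log2(CPM + 1) was most like that of each member were named among 9446 genes with a mean of at least 10 CPM. For Il33 these were Pi16 (Pearson r 0.869), Ly6a (0.832) and Cfb (0.815), of which Pi16 and Ly6a are surface genes used to mark adventitial fibroblasts and Cfb is complement factor B. For Cxcl14 they included Slc16a9 (0.721) and Serping1 (0.711), the C1 inhibitor. For Ccl11 they were 6030408B16Rik (0.767), Akap12 (0.750) and Vegfd (0.739). For Il6 they were Igfbp7 (0.759), Adamtsl1 (0.757) and S100a6 (0.745), and for Cxcl1 they were Tpst1 (0.706), Ebf1 (0.702) and Sorcs2 (0.701). For Csf1 the 3 were Dclk1 (0.713), Sulf2 (0.691) and Aebp1 (0.690), for Ccl7 Dpep1 (0.646), Mme (0.627) and Abca9 (0.621), and for Ccl2 Phldb1 (0.484), Hes1 (0.469) and Midn (0.469). Among the members themselves, Ccl7 and Ccl11 had the highest r (0.621), followed by Il33 and Il6 (0.557), while Ccl2 and Ccl7 were at -0.02. Libraries of 1 mouse share their animal and run, so these values are descriptive.

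Receptors of several of these signals were near 0 in the adventitial cells that held the signals. In adventitial fibroblasts the median level over 10 mice was 0.00419 CPM for Il1rl1, the receptor of Il33, and 0.609 CPM for Csf1r, while Ccr2 was at most 0.111 CPM. Cxcr2 was at most 0.191 CPM in every class. The Il6 receptor was read at higher levels: Il6ra had a median of 19.5 CPM in adventitial and 67.3 CPM in alveolar fibroblasts, and its partner Il6st had 130 CPM in adventitial fibroblasts. The scavenging receptor Ackr3 had a median of 133 CPM in adventitial and 0.735 CPM in alveolar fibroblasts.

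Other genes of the pathways were counted in lists. Beside the counts for P7 to P21 in all fibroblasts, 2.71% of all genes were called higher and 2.39% lower. From P7 to P21 in all fibroblasts, 2 of 28 other chemokine and cytokine genes that passed the filter rose and 1 fell, with a median log2 fold change of 1.88 against 0.02 over all genes. Those that rose were Cxcl12 (log2 2.20), a chemokine that retains leukocytes and progenitors, and Tnfsf13b (6.85), the B cell survival factor BAFF, and the one that fell was the platelet chemokine Pf4 (-12.75). Of 13 receptors, Ackr3 (2.14) and Il6ra (1.33) rose. Of 36 genes of the NF-kB, IL-1, TNF and IL-6 response, 12 rose and 0 fell, led by the acute phase genes Lcn2 (9.80) and Saa3 (8.46), the hyaluronan synthase Has1 (5.00) and the adhesion molecule Icam1 (3.16). Of 29 immediate early genes 8 rose, led by Hspa1a (4.58) and Atf3 (3.32), and of 12 glucocorticoid response genes 10 rose, led by Mt2 (6.64), Zbtb16 (5.87) and Mt1 (5.37). These lists hold genes that dissociation and inflammation both induce. The summed immediate early level in all fibroblasts was 18862 and 9818 CPM at P7 and 36510 and 23588 CPM at P21, and its part in the rise of the members was not tested.

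The same lists had few calls in the other steps of all fibroblasts. From E18.5 to P1 no other chemokine was called and 1 gene rose in each of the remaining 4 lists, with 3 glucocorticoid response genes lower. Of all genes, 0.879% were called higher and 0.119% lower there. The receptor that rose was Ackr3 (log2 3.63). From P1 to P7 none was called. After hyperoxia the glucocorticoid list had 1 call, the cell cycle inhibitor Cdkn1a (log2 3.17, adjusted p 0.00864 by edgeR's quasi-likelihood test), which was the only gene of the whole table called there. In airway smooth muscle from P7 to P21, 5 of 32 NF-kB response genes rose, led by Icam1 (7.88) and Cebpb (4.95). So did 12 of 28 immediate early genes and 6 of 12 glucocorticoid response genes, the latter led by Mt2 (11.47) and Mt1 (8.93). Of all genes, 0.734% were called higher there, and the median log2 fold change was -0.09.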

How the data were processed

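Raw read counts per gene and cell were deposited by the authors, 18072 genes by 5480 cells. Per the submitters' processing notes the tools were STAR 2.5.2b and HTSeq 0.10 and the build is named GRCh38, a human name for mouse data. Handling of multiple matches and of strand is not given in the sources used here. Subtype, mouse, run and treatment came from the labels. Gene positions are those of GENCODE M21 on GRCm38 and were not used for counting.

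Counts were summed per mouse and class (at least 10 cells). edgeR 4.0.16 (R 4.3.3) was used with TMM factors, filterByExpr, quasi-likelihood tests, group and sex as terms, all groups of a class in 1 fit, and Benjamini-Hochberg adjustment over all genes that passed, at a threshold of 0.05. All 8 members passed in the fibroblast classes. Ccl7, Ccl11 and Il33 did not pass in myofibroblasts, Ccl11 and Il33 in airway smooth muscle, Ccl7 and Il33 in vascular smooth muscle, and Il6 and Il33 in pericytes. The test of hyperoxia between classes had mouse as a block. The mouse was the replicate, and nothing says that the animals came from separate litters. Shares have Wilson intervals. Thinning kept 100000 reads per cell and left out 168 shallower cells. DESeq2 1.42.0, other factors and filters, and left-out mice were tried as alternatives. The fit was tested on simulated data. The members and gene lists were chosen with earlier results of these data known. Named are all members, the 3 genes most like each (1 is not reported here), and at most 4 called genes of each list by size of change. Python 3.11.15, numpy 2.4.6, pandas 2.3.3, scipy 1.17.1 and matplotlib 3.10.9 were used for the rest. Whole counts are the deposited unit, and CPM was computed from them without a gene length, except where levels per kilobase are named.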

Additional observations from a re-analysis of the deposited data

Results flagged for a closer look

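For a member and a step, classes went opposite ways. In some, both mice of the later or hyperoxic group lay above both mice of the other group, and in others below them. A class was counted with at least 10 cells with a read in the higher group. Such separation held for 12% to 27.6% of all genes in the classes, steps and directions named here. These differences between classes were not tested, and the values are differences of mean CPM, the later or hyperoxic group minus the earlier or normal one. Ccl11 from E18.5 to P1 differed by 280.4 CPM in adventitial fibroblasts and by -114.7 CPM in pericytes. From P7 to P21 it differed by 284.5 CPM in adventitial and by -18.96 CPM in alveolar fibroblasts.

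Cxcl1 from P1 to P7 differed by 15.7 CPM in myofibroblasts, against -458.7 in adventitial fibroblasts, -178.8 in alveolar fibroblasts, -137.8 in airway smooth muscle, -1626 in vascular smooth muscle and -384.7 in pericytes. From P7 to P21 it differed by 630.9 CPM in adventitial fibroblasts and 650.8 CPM in airway smooth muscle, against -627.8 CPM in pericytes. With hyperoxia it differed by 59.1 CPM in myofibroblasts and by -27.9 CPM in vascular smooth muscle. The thinned share of vascular smooth muscle cells with Cxcl1 went the other way, 19.1 points higher with hyperoxia, where 22.2% of all genes had a difference at least as high. Csf1 from P7 to P21 differed by 12.0 CPM in alveolar fibroblasts and by -11.7 CPM in airway smooth muscle.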

How the results depend on the processing

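Counts are of members called. Except for DESeq2, the share of all genes called under each alternative is not given, so those counts cannot be set against all genes. No paired analysis was possible because the samples carry mouse names and no shared replicate numbers, and sex was a term instead. Of the 61 fold changes with an unadjusted p under 0.05, 0 changed sign in 1101 recomputed values. The other 107 had 162 changes of sign in 1904. With DESeq2, which called 0.956% to 23% of all genes in a comparison, the counts were, for all fibroblasts, 5 from P1 to P7 and 1 with hyperoxia; for adventitial fibroblasts 4, 1 and 3 over the successive ages and 1 with hyperoxia; for alveolar fibroblasts 4, 1 and 2 over the ages; for myofibroblasts 2 and 2; for airway smooth muscle 2 from P1 to P7; for vascular smooth muscle 1 from P7 to P21 and 1 with hyperoxia; for pericytes 1 from E18.5 to P1 and 2 from P7 to P21; and 2 for the difference between classes. At least 20 cells gave 1 and 1 in alveolar fibroblasts (E18.5 to P1, P7 to P21). Thinned reads gave 1 in all fibroblasts from P1 to P7 and 1 with hyperoxia, 1 in adventitial fibroblasts from P1 to P7, 1 from P7 to P21 and 1 with hyperoxia, and in alveolar fibroblasts 2 from E18.5 to P1 and 1 from P7 to P21. Without the filter 1 was called in adventitial fibroblasts from P7 to P21, in airway smooth muscle from P1 to P7 and in pericytes from E18.5 to P1 and P7 to P21. Without a term for sex 1 was called in alveolar fibroblasts from P7 to P21. With only the 4 mice compared, the counts were 1 in all fibroblasts and in myofibroblasts with hyperoxia, 0 in adventitial fibroblasts from E18.5 to P1, and 1 in alveolar fibroblasts at each age step. Without other sorts, 1 was called in adventitial fibroblasts from E18.5 to P1. Leaving out 1 mouse at a time gave ranges, in all fibroblasts, of 1 to 2, 0 to 1 and 2 to 5 over the ages and 0 to 0 with hyperoxia; in adventitial fibroblasts 0 to 3 from E18.5 to P1 and 0 to 1 from P7 to P21; in alveolar fibroblasts 0 to 1 at these steps; in airway smooth muscle 2 to 3 from P7 to P21; in myofibroblasts 0 to 1 for both; in pericytes 0 to 1 from P7 to P21; 0 to 3 for the difference between classes, with 3 without the female P7 mouse; and 0 to 0 elsewhere. An arm left with 1 mouse is assumed to vary like the other groups. With hyperoxia, each edgeR alternative that called a member within a class called Ccl2 alone, with adjusted p of 0.0128 in all fibroblasts with only the 4 mice and 0.0128 in adventitial fibroblasts after thinning. The TMM factors moved log2 fold changes against plain totals by -0.35 (airway smooth muscle, P7 to P21) to 0.24 (vascular smooth muscle, hyperoxia), and fold changes are given after it.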
